A study of Mus musculus with 8 samples.

Results

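Intestinal epithelial cells (IECs) carry a set of genes that belong to type 2 immunity, the branch of immunity aimed at worms and allergens. The 6 genes described here are Retnlb, Gsdmc2, Gsdmc3, Gsdmc4, Il4ra and Il13ra1. They were picked by name from the 25239 genes of the deposited table, and their difference between the genotypes was already known when they were picked. Their levels and fold changes are therefore a description and are given without p-values. Where calls of these genes are counted, the counts are a description as well. The other genes of the pathway, taken from lists written by hand, were tested. These lists were also written with earlier results of these data known, which their p-values do not take into account.

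In type 2 responses the cytokines IL-4 and IL-13 bind receptors on the epithelium. IL-4Rα, encoded by Il4ra, pairs with IL-13Rα1, encoded by Il13ra1, to form the type II receptor, which signals through JAK kinases and the transcription factor STAT6. Retnlb encodes RELMβ, a secreted protein of goblet cells that acts against bacteria and worms. Gsdmc2, Gsdmc3 and Gsdmc4 encode gasdermin C proteins, members of a family whose cleaved forms open pores in membranes. Retnlb and the gasdermin C genes are known targets of IL-4 and IL-13 in the intestine.

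CD1d shows lipid antigens to a class of T cells called NKT cells, and the question of the study was what both do to the epithelium. Bulk RNA-seq was done on IECs sorted as EpCAM positive and CD45, CD31 and Ter119 negative, at 150000 cells per sample, from crypts of the proximal small intestine. There were 4 samples of CD1d-KO mice, whose genotype is labelled CD1d1/2 KO, and 4 of C57BL/6Jax mice, called WT here. Mice were 7 to 10 weeks old, kept without specific pathogens, and untreated. The labels tie the knockout to no cell type, so in these samples loss of CD1d on the epithelium and loss of NKT cells cannot be told apart. The paper also states that its mice were not littermates, so their gut microbes may have differed. The samples came from 2 experiments, and the labels do not say which sample came from which.

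Total counts were 29743061 to 31629435 in CD1d-KO against 23610266 to 29763051 in WT samples. Normalised Cd1d1 counts were 7.15, 2.86, 4.89 and 0.00 in CD1d-KO against 61.1 to 91.1 in WT, and Cd1d2 had at most 2 raw counts in CD1d-KO against 3 to 5 in WT. Epcam was not called (log2 fold change 0.09), while the stromal and endothelial list summed to between 9.87 and 15.9 CPM (counts scaled to the library total). Of 14 genes in an epithelial list that holds Epcam, 8 had a negative and 6 a positive log2 fold change. DESeq2 called 1 of them, lower, where 2.38% of all tested genes were called lower. The list summed to 19790 to 20540 CPM in CD1d-KO against 21110 to 21750 in WT, so the genotypes did not overlap. CD1d-KO 1 and 2 held Y-linked counts (Ddx3y at 1926 and 2156 raw counts) and no other sample exceeded 1, so sex and genotype were partly joined. Transcripts of stomach and of leukocytes were also lower in CD1d-KO samples, as given with the results they accompany.

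The 3 gasdermin C genes lie in 1 cluster on mouse chromosome 15, all on the minus strand. In mm10, the build of the deposited table, Gsdmc2 spans 63824346 to 63845176, Gsdmc3 spans 63857725 to 63878558 and Gsdmc4 spans 63891265 to 63912297. Gsdmcl1 lies between Gsdmc2 and Gsdmc3 and Gsdmcl2 between Gsdmc3 and Gsdmc4, both on the plus strand, and they had at most 1 and 3 raw counts in any sample. Their sequences decide how well short reads can be told apart, so the first 120 coding bases of each are printed here, from GENCODE vM39 transcripts matched by gene name. Capitals mark the 2 positions at which the 3 genes are not all alike.
Gsdmc2: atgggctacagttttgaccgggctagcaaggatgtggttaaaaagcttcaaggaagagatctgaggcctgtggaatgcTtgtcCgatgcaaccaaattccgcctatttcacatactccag
Gsdmc3: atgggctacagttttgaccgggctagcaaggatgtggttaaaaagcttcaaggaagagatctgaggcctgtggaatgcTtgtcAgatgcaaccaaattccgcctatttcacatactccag
Gsdmc4: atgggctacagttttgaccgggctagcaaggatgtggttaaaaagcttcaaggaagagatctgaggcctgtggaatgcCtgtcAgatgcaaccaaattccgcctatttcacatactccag

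Each open reading frame was 1443 bases long. Gsdmc2 and Gsdmc3 were 97.1% identical over the coding sequence, and Gsdmc4 was 93.0% identical to either. Gsdmc, the more distant copy in the same cluster, was 83.1% to 84.1% identical to the 3. Of all windows of 100 bases, 17.3% of the Gsdmc2 transcript, 31.1% of the Gsdmc3 transcript and 17.4% of the Gsdmc4 transcript occurred letter for letter in another of the 3. The Gsdmc3 transcript used held coding bases only. The authors counted only the primary alignment of a read, so a read from such a window could be placed on any copy. The split among Gsdmc2, Gsdmc3 and Gsdmc4 is for this reason less certain than their sum.

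Retnlb was close to absent in CD1d-KO IECs. Raw counts were 1, 2, 3 and 2 across CD1d-KO samples 1 to 4, against 23, 23, 43 and 11 in WT samples 1 to 4. After scaling by size factors these became 0.89, 1.91, 2.93 and 1.92 against 22.6, 24.1, 41.7 and 13.4 normalised counts. The lowest WT sample stood 4.59 times above the highest CD1d-KO sample, so the genotypes did not overlap. Over all samples the sums were 8 and 100 counts, or 0.0657 and 0.912 CPM. WT was 13.9 times CD1d-KO, with an exact 95% interval of 6.78 to 33 that covers counting error only. DESeq2 gave a log2 fold change of -3.75 ± 0.68 (SE). Retnlb is at mm10 chromosome 16, 48816856 to 48818892, plus strand, and with 3.04 ± 1.40 TPM (counts scaled by exon length and library, SD, n = 4) in WT it was the scarcest of the 6 genes.

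The 3 gasdermin C genes were abundant in WT IECs and lower in every CD1d-KO sample. Gsdmc2 had normalised counts of 1556, 1085, 966 and 1822 across CD1d-KO samples 1 to 4, against 3032, 4202, 2854 and 3059 in WT samples 1 to 4. Gsdmc3 had 681, 506, 395 and 681 in CD1d-KO against 1361, 1709, 1150 and 1139 in WT. Gsdmc4 had 2749, 2241, 2287 and 3169 in CD1d-KO against 4385, 7479, 5083 and 5602 in WT. None of the 3 overlapped between the genotypes, with the lowest WT sample 1.57, 1.67 and 1.38 times the highest CD1d-KO sample for Gsdmc2, Gsdmc3 and Gsdmc4. WT 2 was the highest sample for each of them, and CD1d-KO 3 or CD1d-KO 2 the lowest. The log2 fold changes were -1.28 ± 0.25 for Gsdmc2, -1.24 ± 0.17 for Gsdmc3 and -1.11 ± 0.15 for Gsdmc4 (SE), so WT IECs held 2.42, 2.37 and 2.16 times the CD1d-KO level.

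**Figure D1:**
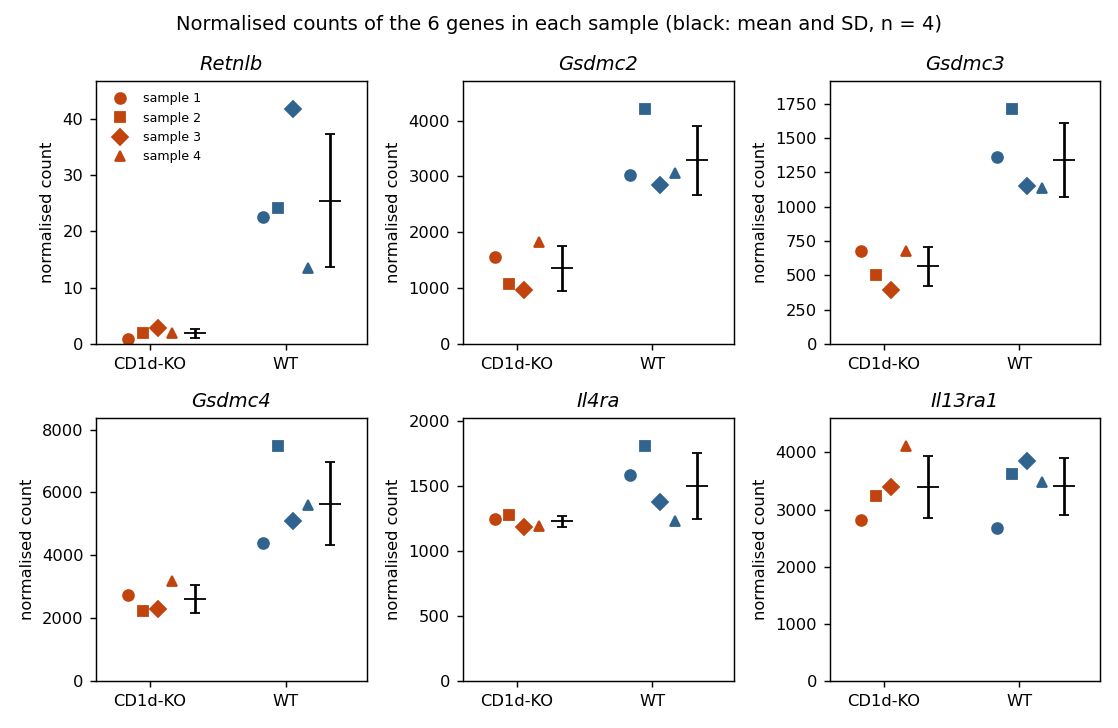
Normalised counts (y axis, from 0) of the 6 genes in CD1d-KO and WT samples, with a marker shape for each sample number and the mean and SD of 4 samples in black. Retnlb and the 3 gasdermin C genes separate the genotypes, with Retnlb at 0.89 to 2.93 in CD1d-KO against 13.4 to 41.7 in WT, while Il4ra and Il13ra1 overlap.

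Taken as a sum, which does not depend on how reads were split among the copies, the 3 genes held 3648 to 5672 normalised counts in CD1d-KO samples and 8778 to 13390 in WT samples. The mean sums were 4534 ± 962 and 10260 ± 2128 (SD, n = 4). Gsdmc4 took 55.1% to 62.7% of the counts in CD1d-KO against 49.96% to 57.2% in WT, Gsdmc2 took 26.5% to 32.1% and 31.2% to 34.5%, and Gsdmc3 took 10.8% to 13.7% and 11.6% to 15.5%. The ranges of all 3 shares overlapped.

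**Figure D2:**
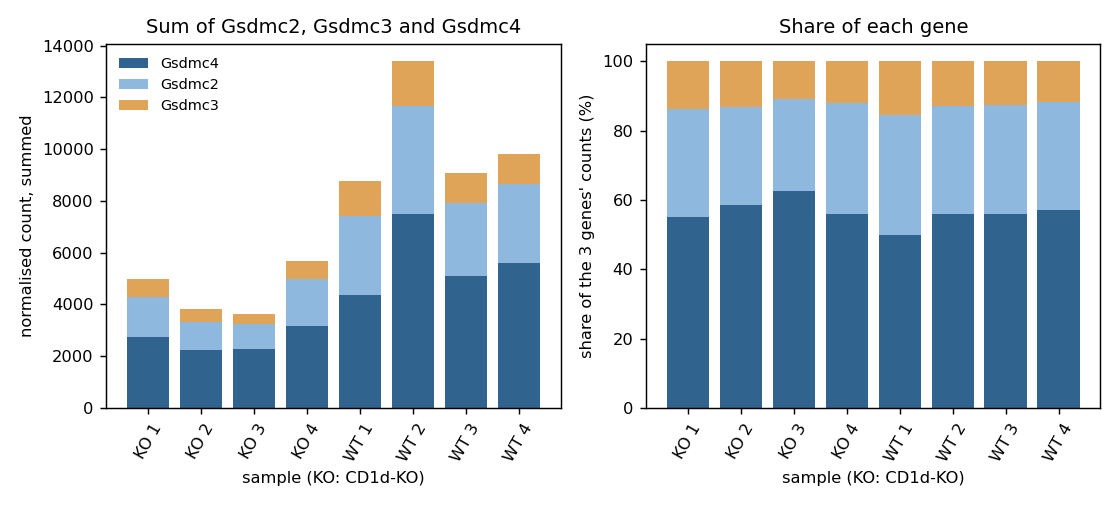
Left, summed normalised counts of Gsdmc2, Gsdmc3 and Gsdmc4 in each sample. Right, the percent of the 3 genes' raw counts that each one took. The sums reach 5672 at most in CD1d-KO against 8778 at least in WT, and Gsdmc4 takes 49.96% to 62.7% in every sample.

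The gasdermin C genes also varied together inside a genotype. After the mean of each genotype was removed, log2 normalised counts of Gsdmc2 and Gsdmc3 had a Pearson r of 0.94 over the 8 samples, Gsdmc2 and Gsdmc4 one of 0.85, and Gsdmc3 and Gsdmc4 one of 0.70. These values share libraries and, in part, reads, and carry no test. Retnlb had r values of -0.35, -0.35 and -0.22 with the 3. At 1 to 3 raw counts of Retnlb in each CD1d-KO sample, these values rest in part on counting noise. The spread of the gasdermin C genes between samples was large for their level. Relative to DESeq2's trend of dispersion on expression, Gsdmc2 lay at the 99.0 percentile of tested genes, Gsdmc4 at 98.3, Gsdmc3 at 98.0 and Il13ra1 at 96.5, with Il4ra at 88.9 and Retnlb at 58.7.

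The receptor chains differed less, and their genotypes overlapped. Il4ra, at mm10 chromosome 7, 125552271 to 125579474 on the plus strand, had normalised counts of 1248, 1281, 1186 and 1195 across CD1d-KO samples 1 to 4, against 1584, 1809, 1375 and 1231 in WT samples 1 to 4. The CD1d-KO samples lay within a narrow band (coefficient of variation 3.67%, against 16.8% in WT), and WT 4 fell inside it, so the genotypes overlapped. The log2 fold change was -0.29 ± 0.11 (SE), and -0.37 without WT 4. Il13ra1 is X-linked, at mm10 chromosome X, 36112108 to 36171261, plus strand. It had 2811, 3243, 3399 and 4115 normalised counts in CD1d-KO against 2683, 3618, 3848 and 3476 in WT. The lowest sample of each genotype was sample 1, the ranges lay over each other, and the log2 fold change was -0.01 ± 0.13.

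Of the 6 genes, promoters of Gsdmc3, Il4ra and Il13ra1 were found in the RefSeq table for GRCm38.p6, the assembly behind mm10. The 250 bases before each start site are printed to set the promoter of a gene that was lower beside those of both receptor chains. Capitals mark matches on either strand to TATAA (the TATA box, in Gsdmc3) or GGGCGG (the GC box, in both receptors). TTCNNNNGAA, the spacing that STAT6 favours, and TTCNNNGAA, that of other STAT factors, were searched as well.
Gsdmc3, chr15:63878559-63878808, minus strand: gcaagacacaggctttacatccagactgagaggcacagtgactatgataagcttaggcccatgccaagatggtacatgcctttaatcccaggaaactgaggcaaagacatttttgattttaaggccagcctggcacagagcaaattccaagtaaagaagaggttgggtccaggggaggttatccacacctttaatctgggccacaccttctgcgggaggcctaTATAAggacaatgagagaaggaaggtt
Il4ra, chr7:125552021-125552270, plus strand: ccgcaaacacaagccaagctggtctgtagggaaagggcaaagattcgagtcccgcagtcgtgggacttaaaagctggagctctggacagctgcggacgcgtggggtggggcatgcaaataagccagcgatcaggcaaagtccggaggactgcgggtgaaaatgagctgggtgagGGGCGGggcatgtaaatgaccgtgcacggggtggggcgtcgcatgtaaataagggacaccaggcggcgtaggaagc
Il13ra1, chrX:36111858-36112107, plus strand: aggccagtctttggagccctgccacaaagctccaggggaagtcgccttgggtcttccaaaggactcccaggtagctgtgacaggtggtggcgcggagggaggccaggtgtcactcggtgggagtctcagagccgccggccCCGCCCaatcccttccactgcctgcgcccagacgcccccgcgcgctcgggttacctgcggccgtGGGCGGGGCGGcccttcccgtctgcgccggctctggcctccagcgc

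The Gsdmc3 window held a TATAA match at 27 to 23 bases before the start, and 1 CpG at 47.6% G and C. The receptor windows had no TATAA match, 1 GGGCGG match in Il4ra and 3 in Il13ra1 of which 2 overlap by 1 base, with 17 and 21 CpGs at 59.6% and 70.8% G and C. The median promoter held 52.4%. Over 32536 distinct promoter windows of this length, 22.7% held TATAA and 33% held GGGCGG. Neither STAT spacing occurred in the 3 windows, which says only that these letters are not there, and 5.89% and 7.04% of all windows held TTCNNNNGAA and TTCNNNGAA.

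Per length, the order of the genes in WT was Gsdmc4 (225 ± 51.2 TPM, SD, n = 4), Gsdmc2 (118 ± 21.4), Il13ra1 (76.2 ± 10.9), Gsdmc3 (52.0 ± 10.1), Il4ra (23.9 ± 3.93) and Retnlb. The WT samples of Il13ra1 (60.6 to 85.9 TPM) and Gsdmc3 (44.4 to 65.8 TPM) overlapped, and all other neighbours in this order did not. In CD1d-KO the order was Gsdmc4 (104 ± 17.4 TPM), Il13ra1 (75.8 ± 11.1), Gsdmc2 (48.9 ± 14.6), Gsdmc3 (22.0 ± 5.72), Il4ra (19.6 ± 1.31) and Retnlb (0.227 ± 0.0931). There Gsdmc4 at 87.8 to 125 TPM and Il13ra1 at 64.3 to 90.9 overlapped, as did Il13ra1 with Gsdmc2 (33.4 to 64.7 TPM) only at their edges and Gsdmc3 with Il4ra. By their means, Il13ra1 stood above Gsdmc2 in CD1d-KO and below it in WT.

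DESeq2 at an adjusted p under 0.05 called 622 of 15446 tested genes, 255 higher and 367 lower in CD1d-KO, which is 4.03% in both directions and 2.38% lower. All 6 genes were tested, Retnlb passing the filter on low counts through its WT samples, and 4 of 6 were called, all of them lower. The same 4 did not overlap between the genotypes, as 9.61% of tested genes did not. Because the genes were chosen for this contrast, nothing is read from these counts. The median log2 fold change was -1.18 over the 6 genes and 0.001 over all tested genes.

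Without the 2 samples that held Y-linked counts, leaving 2 CD1d-KO and 4 WT, the log2 fold changes were -3.40 for Retnlb, -1.24 for Gsdmc2, -1.32 for Gsdmc3, -1.05 for Gsdmc4, -0.33 for Il4ra and 0.14 for Il13ra1. The same 4 of 6 were called, in a fit that called 2.57% of genes, and edgeR also called 4, against 1.66% of all genes. Here and in the fits below nothing is read from the counts of called members either, because the genes were chosen for this contrast. Without the 2 WT samples that had the most stomach transcripts, the fit called 5 of 6, with Il4ra at -0.47, against 2.13% of all genes. With a stomach score as a covariate the estimates were -3.05, -1.10, -1.28, -0.99, -0.55 and 0.44 in the same order, with larger errors (SE 1.17, 0.49, 0.47, 0.42, 0.18 and 0.18), and 0 of 6 were called, while 0.648% of all genes were. With a leukocyte score they were -3.82, -1.08, -1.003, -1.13, -0.10 and -0.13, and Retnlb and Gsdmc3 were called, against 0.453% of all genes. The summed levels of both lists did not overlap between the genotypes, so score and genotype cannot be told apart in these fits.

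**Figure D3:**
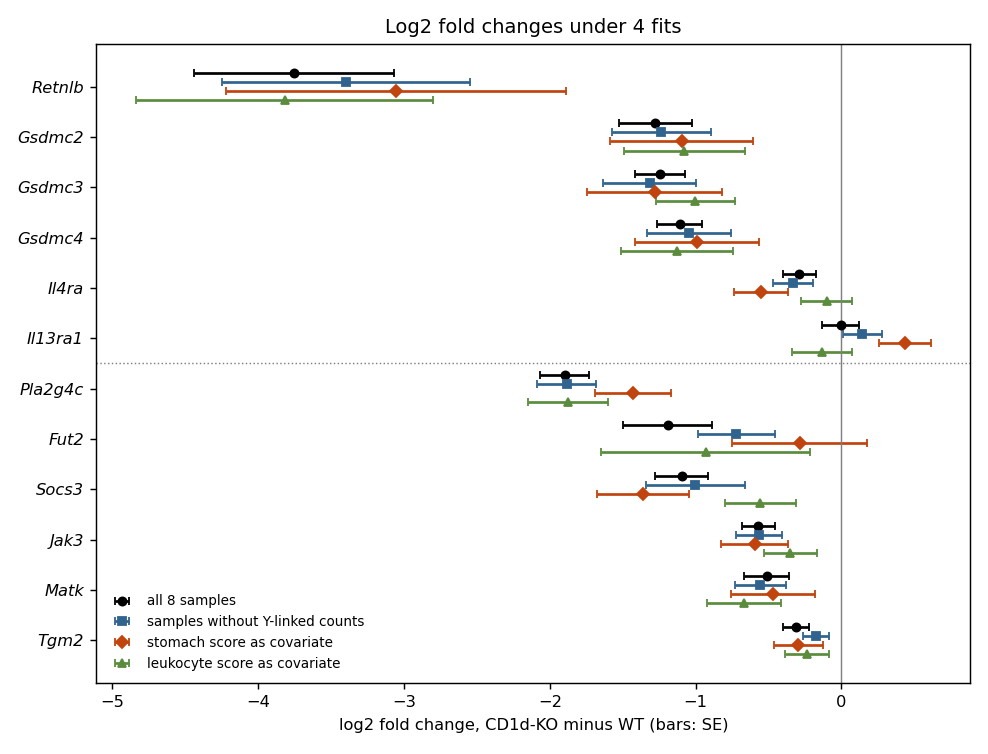
Log2 fold changes of CD1d-KO minus WT (x axis) with SE for the 6 genes, above the dotted line, and for 6 called genes of the pathway lists, below it, in 4 fits. The points of Retnlb and the gasdermin C genes stay between -3.82 and -0.99, Pla2g4c stays between -1.90 and -1.43, and Il13ra1 moves from -0.13 to 0.44.

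Of the ligands, those that bind these receptors were at or near 0. The cells were sorted as CD45 negative, so these counts do not show ligand made by cells outside the sort. Il13 had 0 counts in all 8 samples, which at 3 counts over the sample allows at most about 0.127 CPM in the shallowest library, and Il4 had 1 count in CD1d-KO 1 and 1 in WT 2. Among the alarmins, which epithelium releases to start type 2 responses, Il33 had 68.8, 82.9, 106 and 161 normalised counts in CD1d-KO against 107, 160, 157 and 96.6 in WT. The difference was -0.32 ± 0.27 on the log2 scale (SE) with a DESeq2 adjusted p of 0.653. Il25, the alarmin of tuft cells, had at most 7.85 normalised counts in any sample, and Tslp had 4.89 to 16.7. Areg, a growth factor made in tissue repair, had a log2 fold change of -0.44 ± 0.27. Of 8 genes in this list 4 were tested and 0 were called by DESeq2, with 0 at an unadjusted p under 0.05, and 0 were called by edgeR. The median was -0.38.

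Of 14 other genes of IL-4 and IL-13 receptor signalling, 13 were tested and 2 were called, both lower. Of all tested genes 2.38% were called lower. At an unadjusted p under 0.05 (DESeq2) there were 5 of 13, against 2357 of all 15446 tested genes. Socs3, an inhibitor of cytokine signalling, had 361, 418, 412 and 476 normalised counts in CD1d-KO against 1011, 1223, 707 and 626 in WT. It fell by 1.10 ± 0.18 on the log2 scale (SE; DESeq2 adjusted p = 6.44e-07). Jak3, the kinase that pairs with the common gamma chain, had 272 to 304 in CD1d-KO against 388 to 507 in WT and fell by 0.57 ± 0.12 (DESeq2 adjusted p = 8.39e-05). Both were called with each sample left out in turn. Without the samples with Y-linked counts Jak3 was at -0.56 with an adjusted p of 0.0178 (DESeq2), and Socs3 at -1.004 with 0.0902. With the leukocyte score as covariate neither was called, at -0.56 ± 0.24 for Socs3 and -0.35 ± 0.18 for Jak3 (SE). With the stomach score Socs3 was called at -1.36 ± 0.31, and Jak3 was not, at -0.60 ± 0.23. The most abundant members did not pass. Stat6 had a log2 fold change of 0.02 ± 0.05, Jak1 of 0.07 ± 0.07 and Jak2 of 0.04 ± 0.07. Il2rg, the common gamma chain, had 1 to 22 raw counts per sample, and Il13ra2, the decoy receptor, had 0 in all 8. The median of the list was -0.20.

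Among genes that IL-13 is known to induce in epithelium, 20 of 25 listed were tested. Of these 15 had a negative log2 fold change and 5 a positive one, with a median of -0.14. At an unadjusted p under 0.05 (DESeq2) there were 7 of these 20, against 2357 of all 15446 tested genes. DESeq2 called 4 lower and 0 higher, where 2.38% of all tested genes were called lower. The count of called genes was 2 in edgeR and 1 without CD1d-KO 1. Pla2g4c, a cytosolic phospholipase A2, had 171, 142, 106 and 212 normalised counts in CD1d-KO against 568, 565, 642 and 581 in WT. It fell by 1.90 ± 0.17 on the log2 scale (SE; DESeq2 adjusted p = 1.73e-26), and the genotypes did not overlap. It was called in all 19 alternatives, with an adjusted p of 2.41e-17 (DESeq2) and a log2 fold change of -1.88 without the samples with Y-linked counts, and of 4.55e-05 and -1.43 with the stomach score as covariate. Fut2, a fucosyltransferase of the gut surface that also responds to microbes, had 71.5, 51.4, 135 and 143 in CD1d-KO against 202, 203, 347 and 163 in WT. It fell by 1.19 ± 0.31 (DESeq2 adjusted p = 0.00566), but by 0.72 without the samples with Y-linked counts, where it was not called. With the stomach score as covariate it was at -0.29 ± 0.46 (DESeq2 adjusted p = 0.923). It was also not called with the leukocyte score, without WT 3 and WT 4, or in edgeR (adjusted p = 0.0968). CD1d-KO 1 and 2, the samples with Y-linked counts, had the lowest Fut2 counts, and Fut2 was called in 5 of 8 leave-one-out fits.

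Tgm2, a transglutaminase, fell by 0.31 ± 0.09 on the log2 scale (SE; DESeq2 adjusted p = 0.0243), with 6237 to 8553 normalised counts in CD1d-KO against 8684 to 8989 in WT, and was called in 1 of 8 leave-one-out fits. Muc5ac, a mucin of the stomach surface that stands in the stomach list as well, was called (DESeq2 adjusted p = 0.0431) from 0, 0, 0 and 20 raw counts in CD1d-KO against 11, 86, 2424 and 687 in WT, in which WT 3 and WT 4 hold most reads, and in 1 of 8 leave-one-out fits. The most abundant genes of this list did not pass. Clca1 had 16260 to 32120 normalised counts in CD1d-KO against 24690 to 44040 in WT (log2 fold change -0.27 ± 0.27), Clca3b had a log2 fold change of -0.19 ± 0.20 and Fcgbp of -0.10 ± 0.24. Itln1, a secreted lectin that stands in the Paneth cell list as well, was at 0.51 ± 0.21. Without the samples with Y-linked counts the called genes of this list were Itln1, which was higher in CD1d-KO at 0.73 ± 0.12 (DESeq2 adjusted p = 1.3e-07), and Pla2g4c, Clca3b (-0.47) and Muc4 (-0.39), which were lower. The list shares 10 of its 25 genes with other lists used here.

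Other tested genes of the gasdermin family did not pass, and the other resistin-like genes had no counts to test. Of the gasdermins 5 of 12 were tested and 0 were called by DESeq2 or edgeR, with a median of -0.74. At an unadjusted p under 0.05 (DESeq2) there were 2 of these 5, against 2357 of all 15446 tested genes. Gsdmd, the main gasdermin of inflammatory cell death, had 1867 to 2680 normalised counts in CD1d-KO against 1970 to 3285 in WT (log2 fold change -0.22 ± 0.14). Gsdme had a log2 fold change of 0.33 ± 0.15 and Gsdma2 of -1.15 ± 0.45, with ranges that overlapped for each. Gsdmc had 0 counts in all 8 samples. Gsdmcl-ps, which ends the cluster 2164 bases beyond Gsdmc4, had 6 to 11 raw counts in CD1d-KO against 10 to 16 in WT. The resistin-like relatives Retn, Retnla and Retnlg had 0 counts in all 8 samples.

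**Figure D4:**
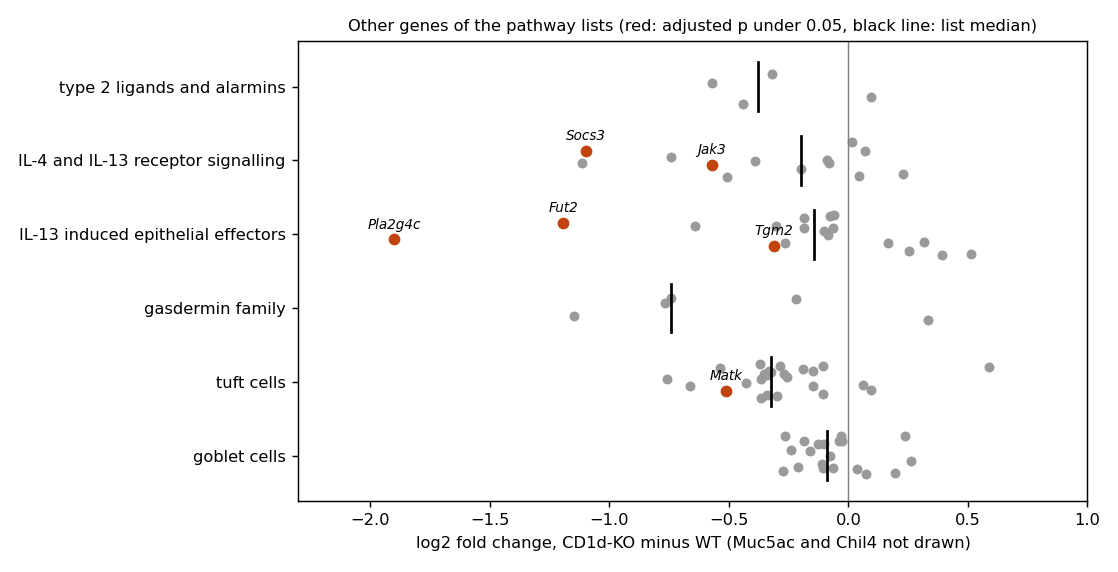
Log2 fold changes of CD1d-KO minus WT (x axis) for each tested gene of 6 lists, with genes called by DESeq2 in red and the list median as a black line. Muc5ac and Chil4 lie outside the drawn range. Pla2g4c at -1.90, Fut2 at -1.19 and Socs3 at -1.10 are the called genes farthest to the left.

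Tuft and goblet cells, which respond to IL-4 and IL-13 and make IL-25 and RELMβ respectively, were looked at through their markers. In bulk samples fewer cells of a type and less RNA per cell cannot be told apart. Of 25 tuft cell genes 22 had a negative log2 fold change, and the median was -0.33. At an unadjusted p under 0.05 (DESeq2) there were 7 of 25, against 2357 of all 15446 tested genes. After adjustment 1 was called, a share near the 4.03% of all tested genes. The count of called genes was 7 without WT 1, 5 with the replicate number as a block and 0 in edgeR. That gene was Matk, a kinase, which had 324, 222, 247 and 267 normalised counts in CD1d-KO against 303, 448, 406 and 356 in WT. It fell by 0.51 ± 0.15 (SE; DESeq2 adjusted p = 0.0285), was called in 3 of 8 leave-one-out fits, and was not called by edgeR. Dclk1, the usual tuft cell marker, had 1583 to 2063 in CD1d-KO against 1231 to 2627 in WT (-0.11 ± 0.26). The tuft genes of highest level, Cd24a (0.06 ± 0.07) and Trpm5 (-0.37 ± 0.14), did not pass either. Of 20 goblet cell genes 0 were called by DESeq2 or edgeR, with 0 at an unadjusted p under 0.05. Muc2, the main intestinal mucin, had 26300 to 38500 normalised counts in CD1d-KO against 24280 to 44620 in WT (-0.11 ± 0.16). The other goblet genes of highest level were Fcgbp and Clca1, given above, and the list median was -0.09.

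Some marker lists moved with genotype beside Retnlb and the gasdermin C genes. For comparison, 255 of all 15446 tested genes were called higher and 367 lower. The stomach list, 15 genes tested of 20, had 14 with a negative log2 fold change, 6 called lower and 1 called higher, summing to 34.1 to 74.1 CPM in CD1d-KO against 103 to 631 CPM in WT. WT 3 and WT 4 held most of these transcripts. The leukocyte list, 22 tested of 32, had 21 negative and 5 called lower, and summed to 55.6 and 74.2 CPM in CD1d-KO 1 and 2, 418 and 352 in CD1d-KO 3 and 4, and 586 to 887 in WT. Cd74 and H2-Aa, MHC class II genes that epithelium can also express, made up most of it, and Ptprc, which encodes CD45, was at 54.5 and 96.3 normalised counts on average. Fits with the stomach and leukocyte scores as covariates are given above, and in them the part of these lists cannot be told from that of genotype. Of the genes that respond to microbes 10 of 14 tested were called lower and 1 higher, and the list summed to 8224 to 8975 CPM in CD1d-KO against 10260 to 12990 in WT. The list of Paneth cells, which secrete antimicrobial peptides at the crypt base, moved the other way, with 11 of 12 genes positive, 4 called higher, 0 called lower and a median of 0.35. Those called were the lysozyme Lyz1 (0.73 ± 0.23), the defensins Defa17 (0.81 ± 0.25) and Defa26 (0.81 ± 0.21), and the colipase Clps (0.83 ± 0.17), of which only Clps was called by edgeR. Its genes summed to 1180 to 2397 CPM in CD1d-KO against 1034 to 1387 in WT. The part of the microbe responsive and Paneth cell lists in the results above was not tested.

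**Figure D5:**
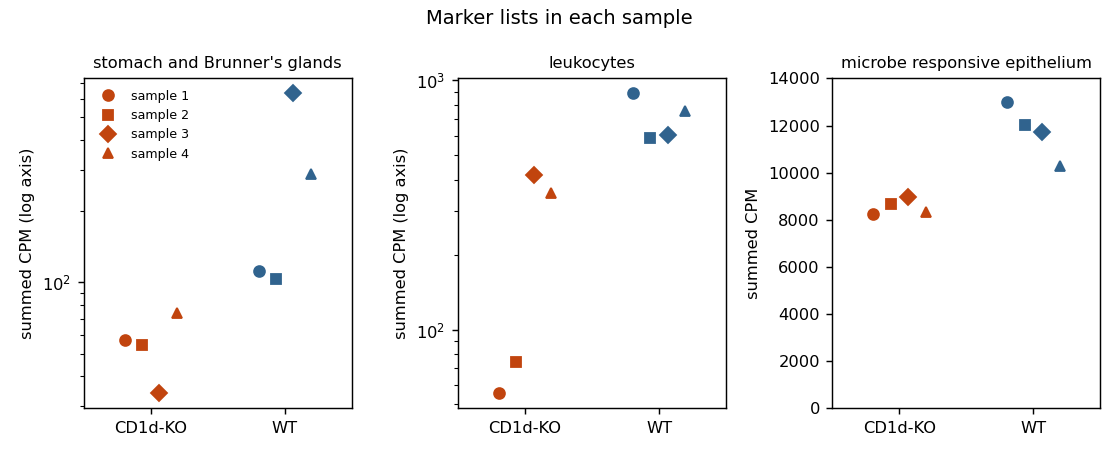
Summed CPM of 3 marker lists in each sample (log axes for stomach and leukocytes, a linear axis from 0 for the microbe responsive genes), with a marker shape for each sample number. CD1d-KO samples lie below WT in each panel, and WT 3 reaches 631 CPM in the stomach list.

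Genes near the 6 in the genome were looked up for comparison. Morc1 and Dzip3 flank Retnlb, Nsmce1 and Il21r flank Il4ra, Dock11 and Zcchc12 flank Il13ra1, and Pvt1 lies 1564134 bases from Gsdmc2 as its nearest tested gene on that side. None of these was called, with log2 fold changes of 0.75 ± 0.40 for Morc1, 0.07 ± 0.14 for Dzip3, -0.08 ± 0.09 for Nsmce1, -0.14 ± 0.11 for Dock11 and 0.29 ± 0.33 for Pvt1 (SE). Zcchc12 was at -0.38 ± 0.39, and Il21r had 0.959 normalised counts on average in CD1d-KO against 4.61 in WT.

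Finally, the profile of each gene over the 8 samples was compared with that of 11716 other genes. By Pearson r of log2(normalised count + 1), the closest were Pofut2 to Retnlb (0.98), Spsb3 to Gsdmc2 (0.98), Sbf1 to Gsdmc3 (0.98), Pfkfb3 to Gsdmc4 (0.98), Pcsk4 to Il4ra (0.96) and Elmod2 to Il13ra1 (0.98). Ranks 2 and 3 were Ralgds and Parp10 for Retnlb, Smad7 and Dapk3 for Gsdmc2, Dapk3 and B4galnt3 for Gsdmc3, Dffa and Plcxd2 for Gsdmc4, Adck5 and Tmem8 for Il4ra, and Vps37a and Mical2 for Il13ra1. Dapk3 appeared for both Gsdmc2 and Gsdmc3. The points share 8 libraries and the genotype difference, and with so many genes compared such values are a description only. Of the 6 closest genes, Sbf1 (log2 fold change -0.24 ± 0.07) and Pfkfb3 (-0.66 ± 0.11) were called.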

How the data were processed

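Groups were read from the sample labels. The authors deposited raw fragment counts per gene, with no normalization. Reads were aligned by HISAT2 and counted by featureCounts 1.6.4, per the file headers on read pairs, primary alignments only and without strand, over an mm10 annotation, whereas the submitters' notes name GRCm39. Coordinates are those of the deposited mm10 table. There were 0 unused sample columns.

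The genotypes were compared with DESeq2 1.42.0 under R 4.3.3, with no further term, and p-values were adjusted by Benjamini-Hochberg over 15446 genes. A further 3638 genes under a mean of 2.41 were dropped by independent filtering and 4 by Cook's rule. Errors are SE for fold changes and SD for levels. Per the study's methods the samples came from 4 mice of each genotype. Replicates differed by more than sampling noise (chi-square per degree of freedom 9.74 to 37.2). TPM were computed from the deposited counts and exon lengths, CPM from total counts. A list score is the mean of log2(normalised count + 1) centred on each gene's mean. The test recovered known changes in simulated counts.

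The members and lists were chosen with earlier results of these data known. Named genes are the 6 members, Cd1d1 and Cd1d2, all called genes of 7 pathway lists, the 3 most abundant of each, a few set by name, the closest profiles and the nearest tested genes. Others, such as Cd74, Itln1 and the Paneth cell genes, were named after their values were seen. Alternatives were edgeR 4.0.16, TMM factors, a filter of 10 counts in 4 samples, no independent filtering, no Cook's rule, a replicate block, leaving out each sample, leaving out samples with Y-linked counts, and covariates for Y-linked counts and for stomach and leukocyte scores. Leaving out 2 WT samples rich in stomach transcripts was chosen after seeing the data.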

Additional observations from a re-analysis of the deposited data

Results flagged for a closer look

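In 56 sets of 4 samples, 4 held a sample far from the other 3 by Dixon's criterion, which chance alone gives for about 5% of sets. WT 2 had 4202 normalised counts of Gsdmc2, with the nearest WT sample at 3059. In WT 1, Gsdmc2 took 34.5% of the counts of the 3 gasdermin C genes, with the nearest WT sample at 31.4%. CD1d-KO 4 had 19.2 normalised counts of Muc5ac while the other CD1d-KO samples had 0. CD1d-KO 3 summed to 674 CPM over the IL-4 and IL-13 signalling genes, with the nearest at 713 CPM.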

How the results depend on the processing

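Over 19 alternatives, 109 of 114 log2 fold changes of the 6 members moved by less than the spread between replicates and no called one changed sign. The count of called genes, 622, became 372 without the samples with Y-linked counts, 331 without WT 3 and WT 4, 228 in edgeR, 93 with the stomach score and 75 with the leukocyte score as covariate, and 323 to 646 with 1 sample left out (323 without CD1d-KO 2, 385 without WT 2, 406 without WT 1). Called members, counted as a description only, numbered 0 with the stomach score and 2 with the leukocyte score, and 4 to 5 with 1 sample left out. Called signalling genes, 2, became 1 without Y-linked counts, 1 with the stomach score and 0 with the leukocyte score, and 2 to 4 with 1 sample left out (4 without CD1d-KO 3). Called IL-13 effectors, 4, became 2 in edgeR, 2 without WT 3 and WT 4 and 2 with either score, and 1 to 4 with 1 sample left out (1 without CD1d-KO 1, 2 each without WT 1, WT 3 or WT 4). Other gasdermins went from 0 to between 0 and 1 with 1 sample left out (1 without WT 1). Called tuft genes, 1, became 0 without Y-linked counts, 0 with Y-linked counts or the leukocyte score as covariate, 0 without WT 3 and WT 4, 0 in edgeR, and 0 to 7 with 1 sample left out (7 without WT 1, 0 without CD1d-KO 2, WT 2 or WT 3). The cause of these changes was not tested, though fits on fewer samples have less to test with.

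With the replicate number as a block, 569 genes, 4 members, 5 effectors and 5 tuft genes were called. Same-numbered samples deviated from their group means with correlations of 0.344, -0.0825, 0.267 and -0.0908, so the numbers were not taken to pair the samples. At 8 CD1d-KO counts, Retnlb has the least precise fold, and the split of gasdermin C reads among near-identical copies limits each single copy.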
